A study of Homo sapiens with 27 samples.

Results

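Lens crystallins are the structural proteins that fill the fibre cells of the lens, and 9 of their genes were followed here in human embryonic stem cells that were differentiated toward photoreceptor progenitors. The 9 genes were CRYAA, CRYAB, CRYBA1, CRYBA2, CRYBA4, CRYBB1, CRYBB2, CRYBB3 and CRYGS, and they were the rows of the deposited tables whose Ensembl identifiers carry these symbols, out of 44852 genes in all. They were chosen as a protein family and partly selected on a measured value, the higher level of CRYBB1 at day 32 on LN523 compared with LN521. The difference between LN523 and LN521 at day 32 is therefore given as a description without a test for all 9 genes, and so is CRYBB1 wherever the LN523 or LN521 libraries of day 32 are among the groups compared. The fits over time used all 27 libraries, so these libraries still entered the estimate of spread in the other tests of CRYBB1 over time. All 9 genes passed the filter of more than 1 count in sum over the 27 libraries.

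The libraries came from the H1 line, an established line of human embryonic stem cells, and covered 3 laminin matrices at days 2, 22 and 32 with 3 replicates in each of the 9 groups. Each matrix carries the name of its main isoform, which is LN523, a laminin of the chains alpha 5, beta 2 and gamma 3, or LN323, which carries alpha 3 in place of alpha 5, or LN521, which carries gamma 1 in place of gamma 3. The sources differ on the coatings, since the sample labels give LN323 as the partner of LN523 and of LN521 and as the sole laminin of the LN323 group, whereas the methods of the study give LN521 as the partner or sole laminin. On every matrix the day 2 libraries were labelled as undifferentiated cells. After day 2 all cells received neural induction medium with CKI-7, a casein kinase inhibitor, and SB431542, an inhibitor of activin and TGF-beta receptors, followed by photoreceptor medium with BDNF, CNTF, retinoic acid and the gamma-secretase inhibitor DAPT. The sample titles number the days differently from the sampling days in the labels, which are used here. The replicate number equals the sequencing lane, and no source states that replicates were separate cultures, so p-values measure only the spread between these samples, which may be technical. The cells were not sorted, and in such bulk samples a change in the number of cells of a type and a change in RNA per cell cannot be told apart.

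Crystallins fall into 2 structural families. The alpha-crystallins, CRYAA and CRYAB, are small heat-shock proteins that hold partly unfolded proteins in solution. CRYAA is largely restricted to the lens, whereas CRYAB is also made in muscle, glia and retina and rises under stress. The beta- and gamma-crystallins share a fold of Greek key motifs. CRYBA1, CRYBA2 and CRYBA4 are acidic beta-crystallins, CRYBB1, CRYBB2 and CRYBB3 are basic beta-crystallins, and CRYGS is the gamma-crystallin that continues to be made in the adult lens. The lens forms from surface ectoderm that touches the optic vesicle, and transcription factors such as PAX6, SOX2, PROX1 and the large MAF proteins are known to activate crystallin genes. Several beta-crystallins, CRYBB2 among them, have also been found in the retina.

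The genes lie on 6 chromosomes, and 4 of them sit on chromosome 22, as given in GRCh38 coordinates. CRYBB3 (chr22:25199858-25207359, plus strand) is followed at a distance of 5205 bases by CRYBB2 (chr22:25212564-25231870, plus strand). CRYBB1 (chr22:26599278-26618027, minus strand) and CRYBA4 (chr22:26621963-26630669, plus strand) are a divergent pair whose starts lie 3936 bases apart. CRYAA is at chr21:43169008-43172805 on the plus strand, CRYAB at chr11:111908564-111923722 on the minus strand, CRYBA1 at chr17:29246859-29254494 on the plus strand, CRYBA2 at chr2:218990189-218993422 on the minus strand and CRYGS at chr3:186538441-186546702 on the minus strand. For several members the counts could be shared with other genes. All exonic bases of CRYAA are matched elsewhere on chromosome 21 by the gene ENSG00000276076 with 99.89% identity, and this copy held 28 counts over the 27 libraries against 7358 for CRYAA, so the level of CRYAA is uncertain by the reads that were split or discarded between them. CRYBB2 shares 39.1% of its exonic bases with the pseudogene CRYBB2P1 at 96.58% identity, and CRYBB2P1 held 12644 counts against 1774. CRYBB2 also overlaps the same-strand gene ENSG00000236641 over 26.5% of its exonic bases, and CRYGS overlaps TBCCD1 over 15.0%. On the opposite strand, HSPB2 covers 13.6% of the exonic bases of CRYAB, and the sources used here do not say whether the counting used strand.

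Because most of these genes varied together across the libraries, the sequences just before their starts are shown, from RefSeq on GRCh38.p14. The promoter table held 8 of the 9 members, without CRYAB. Capitals mark TGCTGA, the half-site that large MAF proteins are known to recognise, on the strand shown, TCAGCA, the same half-site on the other strand, and TATAAA, the letters of a TATA box, with TTTATA its other strand. Each window ends at the base before the start, and it runs over 140 bases except for CRYGS, where 210 bases are shown to include the match. For CRYBB2 and CRYGS this is a RefSeq start that lies inside the gene coordinates given above, not at their first base. The windows are chr21:43168868-43169007 on the plus strand for CRYAA, chr17:29246719-29246858 on the plus strand for CRYBA1, chr2:218993423-218993562 on the minus strand for CRYBA2, chr22:26621823-26621962 on the plus strand for CRYBA4, chr22:26618028-26618167 on the minus strand for CRYBB1, chr22:25219499-25219638 on the plus strand for CRYBB2, chr22:25199718-25199857 on the plus strand for CRYBB3 and chr3:186544381-186544590 on the minus strand for CRYGS.
CRYAA: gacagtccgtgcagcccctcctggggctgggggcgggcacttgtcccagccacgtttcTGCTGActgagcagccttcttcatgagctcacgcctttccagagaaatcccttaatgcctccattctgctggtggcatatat
CRYBA1: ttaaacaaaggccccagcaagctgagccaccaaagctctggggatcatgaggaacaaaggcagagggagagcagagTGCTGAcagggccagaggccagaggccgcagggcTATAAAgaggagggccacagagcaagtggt
CRYBA2: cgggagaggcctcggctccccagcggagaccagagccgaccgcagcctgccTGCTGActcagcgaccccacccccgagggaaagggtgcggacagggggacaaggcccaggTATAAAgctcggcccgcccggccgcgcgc
CRYBA4: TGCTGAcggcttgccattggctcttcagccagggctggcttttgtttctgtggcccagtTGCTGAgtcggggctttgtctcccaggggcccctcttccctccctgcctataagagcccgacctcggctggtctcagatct
CRYBB1: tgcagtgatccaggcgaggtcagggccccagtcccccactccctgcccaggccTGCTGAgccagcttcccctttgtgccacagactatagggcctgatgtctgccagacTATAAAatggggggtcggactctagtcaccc
CRYBB2: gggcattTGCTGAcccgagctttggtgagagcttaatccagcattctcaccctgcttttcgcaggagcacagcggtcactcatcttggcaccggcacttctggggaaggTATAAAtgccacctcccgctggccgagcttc
CRYBB3: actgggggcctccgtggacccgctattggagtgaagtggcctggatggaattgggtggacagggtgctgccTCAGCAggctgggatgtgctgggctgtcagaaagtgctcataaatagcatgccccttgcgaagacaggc
CRYGS: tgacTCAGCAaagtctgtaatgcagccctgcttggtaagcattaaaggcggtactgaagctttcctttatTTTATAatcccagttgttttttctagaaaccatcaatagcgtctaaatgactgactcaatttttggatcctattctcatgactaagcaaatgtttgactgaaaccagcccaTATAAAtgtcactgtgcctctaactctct

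All 8 members with a promoter held TGCTGA on either strand within 250 bases before a start, against 14% of 35116 promoter windows of that length. In CRYAA the match began 82 bases before the start, in CRYBB1 87 bases before it and in CRYBA1 64 bases before it. TATAAA was present in the windows of CRYBA1, CRYBA2, CRYBB1, CRYBB2 and CRYGS, where it began 29 to 31 bases before the start, against 10.7% of all windows. The core of the heat-shock element, GAANNTTC, which heat-shock factors bind, was found in none of the 8, against 5.78% of all windows. No 2 of the matches overlapped each other. These matches describe letters only and were not tied to binding in these cells.

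Total counts ranged from 25620624 to 47340990 per library with a median of 39862487, so a crystallin at 0 counts was limited by sampling to about 3 counts in a library of that size. The markers of the labelled cell states were read next. The 5 pluripotency markers fell from day 2 to day 22 on every matrix, and the 5 neural retina progenitor markers, RAX, SIX6, LHX2 and PAX6 among them, rose on every matrix by edgeR's quasi-likelihood test. Of all genes tested, 11.3% to 11.7% rose and 10.3% to 11.6% fell over that time, by matrix. Of 7 photoreceptor precursor markers 5 rose from day 22 to day 32 on LN523 and 2 on LN521 in the same test, and 0 of 7 on LN323, with 2 at an unadjusted p under 0.05. The shares of all genes that rose between these days were 0.297% on LN523, 0.198% on LN521 and 0.0334% on LN323. On LN323 1262 of 44852 genes had an unadjusted p under 0.05 in edgeR. From day 2 to day 22 OTX2 of the same list had log2 folds of -2.65 to -1.51 and AIPL1 of -4.76 to -3.06, and both fell on every matrix. CRX was between 1.00 and 23.8 TPM in the 18 libraries of days 22 and 32. POU5F1, a pluripotency factor, stayed highest in LN521 replicate 1, at 108 TPM at day 22 and 22.1 TPM at day 32. That replicate also had the lowest summed crystallin level at both days. TPM is a read level per gene length, scaled to the same total in every library, that allows genes to be compared with each other, and it is used below for levels in single libraries, always in the order of replicates 1, 2 and 3. One library stood apart before any comparison. LN323 replicate 2 of day 32 was the highest of the 9 libraries of its day for CRYAA, CRYBA1, CRYBA2, CRYBA4, CRYBB1, CRYBB2 and CRYGS, at 2.94 to 4.23 times the next highest, and held 70.4% to 79.6% of the summed TPM of its group for each of them. The main results that rest on it are given with and without it.

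**Figure D1:**
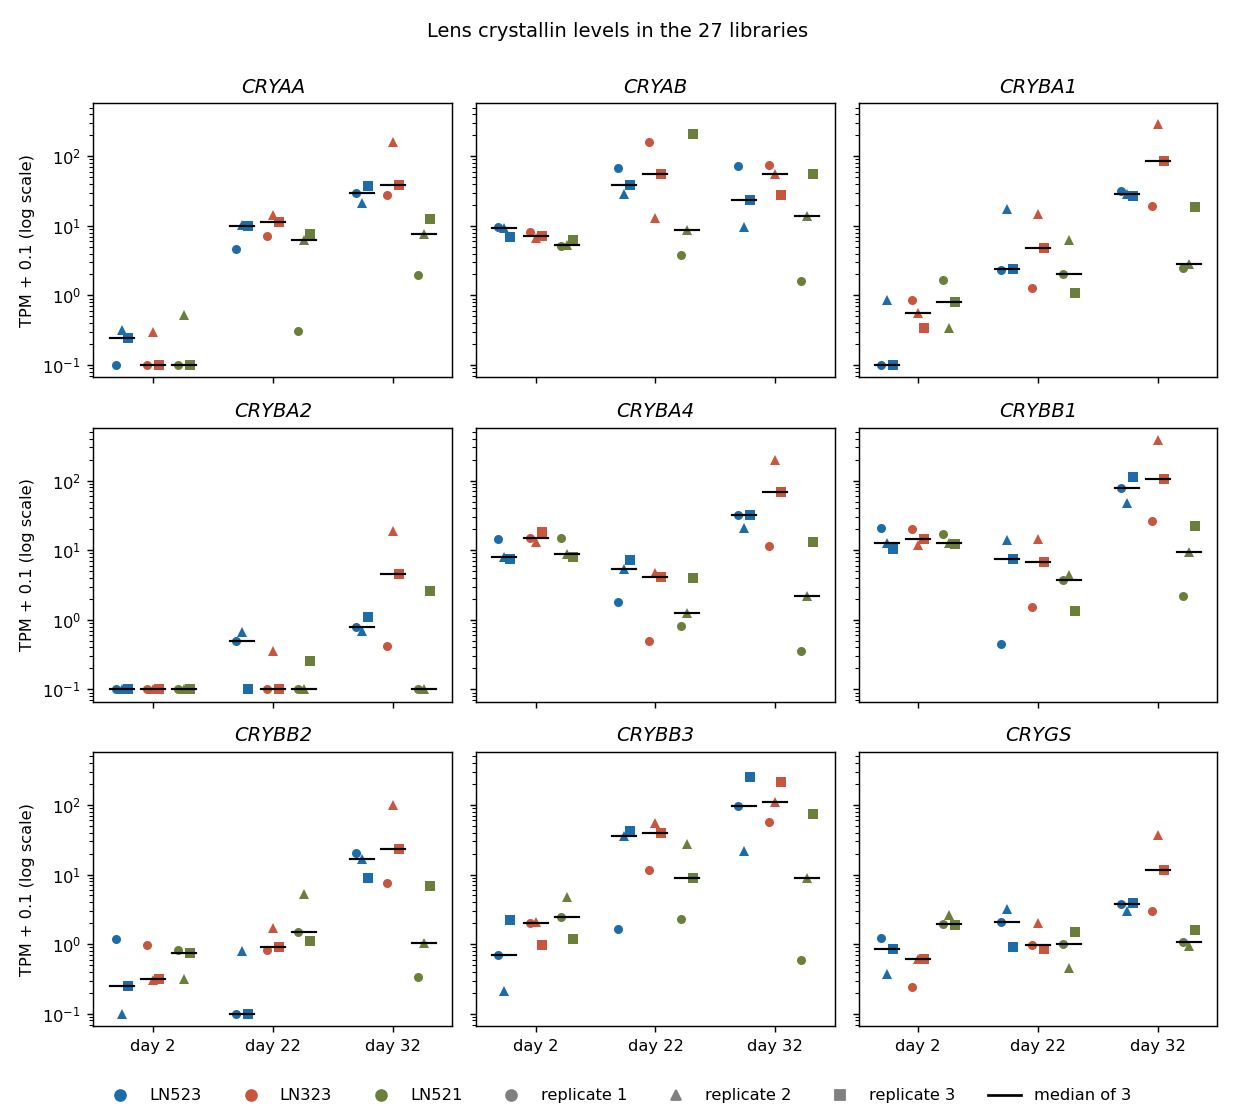
TPM of each crystallin plus 0.1 on a log axis (y) by day (x) in all 27 libraries, with colours for the matrices, symbols for the replicates and black bars for the median of 3. At day 32 the triangle of LN323, replicate 2, lies above all other libraries for 7 of the 9 genes, and the LN521 group reaches down to 0.259 TPM for CRYBA4.

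At day 2 the crystallin signal in the undifferentiated cells came mainly from the divergent neighbours CRYBB1 and CRYBA4 and from the chaperone CRYAB. CRYBB1 was at 20.8, 12.7 and 10.2 TPM on LN523, at 20.2, 11.7 and 14.6 TPM on LN323 and at 16.7, 12.5 and 12.2 TPM on LN521. CRYBA4 was at 14.2, 7.86 and 7.26 TPM on LN523, at 15.1, 13.1 and 18.2 TPM on LN323 and at 15.0, 8.64 and 7.96 TPM on LN521. The groups overlapped for CRYBB1, whereas for CRYBA4 every LN323 library of a lane was above the LN523 and LN521 library of the same lane. CRYAB was between 5.08 and 9.48 TPM in the 9 libraries. CRYAA stayed at or below 0.416 TPM with 0 to 8 counts, CRYBA1 reached 1.59 TPM, CRYBB2 1.07 TPM, CRYGS 2.51 TPM and CRYBB3 4.70 TPM. CRYBA2 had 0 counts in all 9 libraries of day 2, which allows up to 3 counts in each, for counting error only. The summed level of the 9 genes was 27.4 to 47.3 TPM at day 2, with CRYBB1 or CRYBA4 as the highest member in every library.

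Between days 2 and 22 the lens-restricted chaperone CRYAA went from near 0 to a measurable level on all 3 matrices. CRYAA went to 4.6, 10.0 and 9.8 TPM on LN523, to 7.09, 14.1 and 11.4 TPM on LN323 and to 0.211, 6.23 and 7.55 TPM on LN521. On LN523 and LN323 every day 22 library was above every day 2 library, whereas LN521 replicate 1 stayed at 4 counts and overlapped day 2. The log2 fold change of CRYAA was 5.74 (SE 1.08, n = 3 per group) on LN523 with an adjusted p of 7.99e-05, 6.94 (SE 1.08) on LN323 with an adjusted p of 4.01e-06, and 4.81 (SE 1.10) on LN521 with an adjusted p of 0.00108, each by the quasi-likelihood test of edgeR on counts, adjusted by Benjamini-Hochberg over 44852 genes. These folds rest on 0 to 8 counts per library at day 2 and are imprecise in size.

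CRYAB, the chaperone that is not confined to the lens, spread widely by day 22. It was at 67.7, 28.7 and 39.1 TPM on LN523, at 161, 12.7 and 56.2 TPM on LN323 and at 3.67, 8.72 and 205 TPM on LN521. All LN523 and LN323 libraries lay above day 2, whereas on LN521 replicate 1 lay below all day 2 libraries and replicate 3 was the highest of the series. In edgeR's quasi-likelihood test CRYAB rose on LN323 by 2.81 on the log2 scale (SE 0.96, adjusted p = 0.0299) and on LN521 by 3.28 (SE 1.02, adjusted p = 0.0175), and the value on LN523 was 1.97 (SE 0.93, adjusted p = 0.154). Without LN521 replicate 3 of day 22 the LN521 value was 0.35 with an adjusted p of 0.939, and without LN323 replicate 1 of day 22 the LN323 value was 1.78 with an adjusted p of 0.274. CRYAB alone made up 89.2% of the summed crystallin TPM in LN521 replicate 3, 87.4% in LN323 replicate 1 and 84.1% in LN523 replicate 1 of day 22.

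The acidic beta-crystallins did not move in one direction between days 2 and 22. CRYBA1 reached 2.21, 17.4 and 2.31 TPM on LN523, 1.19, 14.8 and 4.69 TPM on LN323 and 1.93, 6.19 and 0.993 TPM on LN521, with replicate 2 the highest on each matrix. CRYBA1 rose on LN523 by 4.31 on the log2 scale (SE 1.46, adjusted p = 0.0282) and on LN323 by 3.32 (SE 1.21, adjusted p = 0.0420), and was at 1.96 (SE 1.33, adjusted p = 0.377) on LN521 in the same edgeR test. The call on LN523 was lost without any one library of day 2 or without replicate 2 of day 22, where the fold was 3.41 on the log2 scale (adjusted p = 0.273 by edgeR). The call on LN323 was lost without replicate 2 or 3 of either day, with adjusted p from 0.0506 to 0.279 by edgeR, and by limma on log2 (TPM + 1), at 0.0832. CRYBA4 had lower values than at day 2, with 1.68, 5.26 and 7.05 TPM on LN523, 0.388, 4.62 and 4.03 TPM on LN323 and 0.710, 1.17 and 3.89 TPM on LN521. Every day 22 library of CRYBA4 was below every day 2 library of its matrix. By edgeR with Benjamini-Hochberg adjustment CRYBA4 fell by 2.64 (SE 0.81, adjusted p = 0.0157) on LN323, and the values on LN521 and LN523 were -2.53 (SE 0.98, adjusted p = 0.0667) and -1.56 (SE 0.82, adjusted p = 0.217). CRYBA2 had 8 counts or fewer in every library of day 22, close to the floor, and no fold against day 2 is given.

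Among the basic beta-crystallins CRYBB3 was the one that rose by day 22. It was at 1.57, 35.6 and 42.1 TPM on LN523, at 11.6, 55.7 and 39.0 TPM on LN323 and at 2.21, 27.7 and 8.71 TPM on LN521, so replicate 1 was the lowest on each matrix. CRYBB3 rose by 4.41 on the log2 scale (SE 1.23, adjusted p = 0.00735) on LN523 and by 4.04 (SE 1.01, adjusted p = 0.00255) on LN323, with 2.27 (SE 1.05, adjusted p = 0.136) on LN521 in edgeR's test. CRYBB1 was at 0.354, 14.0 and 7.27 TPM on LN523, at 1.43, 14.5 and 6.76 TPM on LN323 and at 3.66, 4.29 and 1.23 TPM on LN521. Its fold was below 0 on each matrix, from -1.48 (SE 0.76) on LN323 to -2.16 (SE 0.90) on LN521, and passed the edgeR test on none, the lowest adjusted p being 0.0897. CRYBB2 stayed at or below 5.23 TPM and CRYGS at or below 3.12 TPM at day 22, and neither passed the test on any matrix.

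In all, 3 of the 9 members rose on LN523 between days 2 and 22, where 11.4% of all genes tested rose and 10.9% fell. On LN323 4 members rose and 1 fell, where 11.7% of genes rose and 11.6% fell, and on LN521 2 members rose, where 11.3% rose and 10.3% fell. The median log2 fold change of the 8 members other than CRYBA2 was 1.51, 2.04 and 2.11 on LN523, LN323 and LN521, with medians of 0.03, 0.02 and -0.06 over all genes. Leaving out LN523 replicate 2 of day 2 left 1 member called on LN523, leaving out any library of the pair of LN323 groups except replicate 2 of day 2 left 3 called on LN323, and leaving out LN521 replicate 1 or 3 of day 2 or replicate 3 of day 22 left 1 called on LN521.

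**Figure D2:**
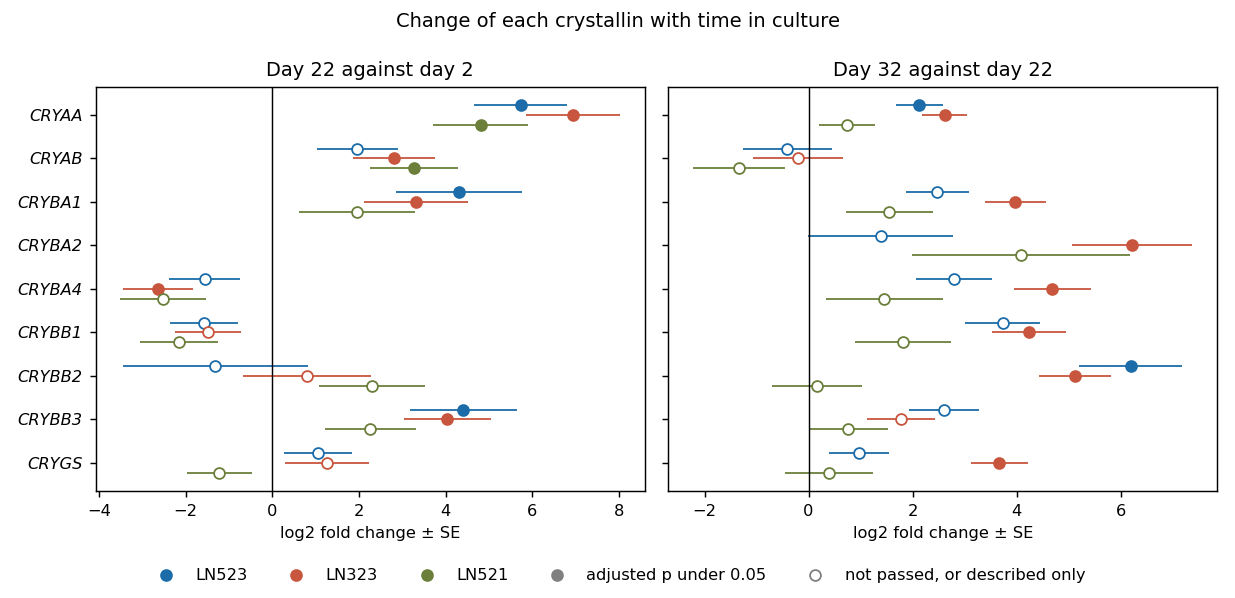
log2 fold change with its SE (x) of each crystallin (y) between days 2 and 22 and between days 22 and 32, by matrix, with 3 libraries per group. Filled circles passed an adjusted p of 0.05 in edgeR's test: CRYAA is filled on all 3 matrices in the first panel, and 7 of 9 genes are filled for LN323 in the second. CRYBA2, with 0 counts at day 2, is left out of the first panel.

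From day 22 to day 32, 7 members rose on LN323: CRYAA, the 3 acidic beta-crystallins, CRYBB1, CRYBB2 and CRYGS. CRYBB1 was at 25.9, 380.2 and 105 TPM on LN323 at day 32, CRYBA1 at 19.5, 290.0 and 84.6 TPM and CRYBA4 at 11.6, 199 and 67.6 TPM. CRYBB2 was at 7.40, 98.6 and 23.3 TPM, CRYGS at 2.94, 36.4 and 11.6 TPM and CRYBA2 at 0.322, 18.8 and 4.51 TPM. Replicate 2 was the highest and replicate 1 the lowest for each of these 6 genes, and every day 32 library was above every day 22 library, as in 8 of the 9 members and 3.3% of all genes. CRYAA was at 27.4, 158 and 38.9 TPM with the same order of libraries. In the edgeR test, adjusted by Benjamini-Hochberg, CRYBB2 rose by 5.12 on the log2 scale (SE 0.70, adjusted p = 0.000107), CRYBA1 by 3.98 (SE 0.58, adjusted p = 0.000785) and CRYGS by 3.67 (SE 0.55, adjusted p = 0.00196). CRYBA4 rose by 4.69 (SE 0.73, adjusted p = 0.00363), CRYAA by 2.61 (SE 0.44, adjusted p = 0.00595), CRYBB1 by 4.24 (SE 0.71, adjusted p = 0.00938) and CRYBA2 by 6.22 (SE 1.16, adjusted p = 0.0383), the last from 4 counts in the 3 libraries of day 22 together.

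The 7 crystallins were among only 15 genes that rose on LN323 between these days, or 0.0334% of the 44852 tested, and no gene fell. CRYBB3 was at 57.6, 112 and 212 TPM with a log2 fold change of 1.78 (SE 0.64, adjusted p = 1), and CRYAB at 74.0, 55.1 and 27.2 TPM with -0.20 (SE 0.86, adjusted p = 1). The call rests on single libraries: without replicate 2 of day 32 no member passed the edgeR test, and the folds were then 1.75 for CRYAA, 3.10 for CRYBA1, 3.31 for CRYBA4, 2.94 for CRYBB1, 3.88 for CRYBB2 and 2.58 for CRYGS, all still above 0, with the lowest adjusted p at 0.0990 for CRYBB2. Without replicate 2 of day 22 no member passed and without replicate 3 of day 22 only CRYBB2 did, and limma on log2 TPM called 0 with all libraries. Few genes of any kind were called in these fits. The totals were 1 gene without replicate 2 of day 32, 1 without replicate 2 of day 22 and 3 without replicate 3 of day 22. Limma called 3 and 1 genes with a pseudocount of 1 and of 0.1. DESeq2 did not call CRYAA or CRYBA2, with adjusted p of 0.545 and 1.

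On LN523 the basic beta-crystallin CRYBB2 and the chaperone CRYAA rose from day 22 to day 32, and 5 other members had day 32 values wholly above those of day 22. CRYBB2 went from 0, 0.688 and 0 TPM to 20.1, 16.4 and 8.87 TPM, and CRYAA to 29.6, 20.9 and 36.9 TPM. Both groups were apart from day 22, and by edgeR CRYBB2 rose by 6.19 on the log2 scale (SE 0.99, adjusted p = 0.000381) from 6 counts at day 22, and CRYAA by 2.13 (SE 0.45, adjusted p = 0.0189). CRYBA1 was at 31.6, 28.9 and 26.7 TPM and CRYBA4 at 32.2, 20.9 and 32.2 TPM, with log2 fold changes of 2.48 (SE 0.61, adjusted p = 0.0713) and 2.79 (SE 0.72, adjusted p = 0.113) in the same test. CRYBB1, described without a test, went to 79.4, 47.4 and 112 TPM with a fold of 3.73 (SE 0.72) on the log2 scale. CRYBB3 was at 97.6, 22.1 and 254 TPM, with replicate 2 below 2 of the day 22 libraries, and its fold was 2.61 (SE 0.68, adjusted p = 0.107 by edgeR). CRYGS was at 3.68, 2.90 and 3.82 TPM, CRYBA2 at 0.695, 0.591 and 1.01 TPM and CRYAB at 72.4, 9.45 and 23.1 TPM, and none of these passed.

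Of the 8 members tested on LN523, 2 rose, where 0.297% of 44852 genes rose, and 7 of 9 lay wholly above day 22, where 3.38% of genes did. The 7 and the LN523 median below include CRYBB1, chosen partly on its day 32 level on LN523, so both are descriptions. The median log2 fold change of the 9 members was 2.48 on LN523 and 3.98 on LN323 between these days, against -0.01 for all genes on LN523 and 0.00094 on LN323. Without LN323 replicate 2 of day 32 the median on LN323 was 2.94. The call for CRYAA was lost without any of 4 libraries, replicates 1, 2 and 3 of day 22 and replicate 1 of day 32, in the fit without the lane block (adjusted p = 0.111 by edgeR) and in that of the groups compared alone (0.286). It was also missed by DESeq2 (adjusted p = 0.317) and by limma on log2 TPM (0.403 and 0.711 with a pseudocount of 1 and of 0.1). Without replicate 2 of day 32, 4 members passed, where 94 of 44719 genes did. CRYBB2 passed without any one library, and missed the threshold in the fit of the pair of groups alone (adjusted p = 0.0549 by edgeR) and by limma (0.0613 and 0.0621).

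On LN521 the crystallins differed widely between replicates at day 32, and no member passed the test against day 22. CRYBB1 was at 2.10, 9.41 and 22.0 TPM, CRYBB3 at 0.485, 8.76 and 75.1 TPM, CRYBA1 at 2.38, 2.73 and 18.8 TPM and CRYBA4 at 0.259, 2.08 and 12.8 TPM. CRYAA was at 1.85, 7.61 and 12.6 TPM, CRYBB2 at 0.237, 0.952 and 6.71 TPM, and CRYGS at 0.976, 0.841 and 1.51 TPM. Replicate 3 was the highest for each of these 7 genes, and for all 9 the days overlapped, where 3.76% of genes lay wholly higher and 4.07% wholly lower at day 32. None of the 8 members tested passed edgeR's test between days 22 and 32 and none had an unadjusted p under 0.05, where 0.198% of 44852 genes rose and 0.0557% fell. Over all genes 3049 of 44852 had an unadjusted p under 0.05 in edgeR. DESeq2 and limma also called 0 members, with 1 member at an unadjusted p under 0.05 in DESeq2. Over all genes DESeq2 called 310 and had 3143 at an unadjusted p under 0.05. The log2 folds ran from -1.33 (SE 0.88) for CRYAB to 1.55 (SE 0.84) for CRYBA1, apart from CRYBB1 with 1.82 (SE 0.93) as a description and CRYBA2, which had 2 counts at day 22 and 34 counts, all in replicate 3, at day 32.

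**Figure D3:**
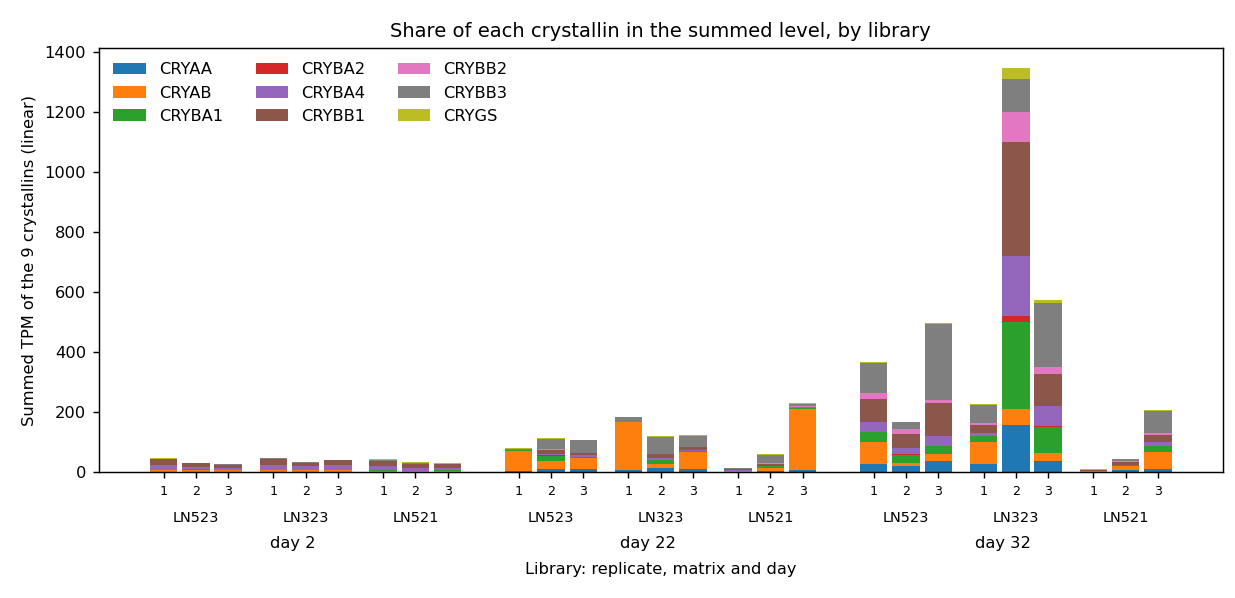
Stacked bars of TPM (y, linear from 0) of the 9 crystallins in each of the 27 libraries (x, by day, matrix and replicate). The sum is 1347 TPM in LN323 replicate 2 of day 32 and 9.80 TPM in LN521 replicate 1 of that day, and CRYAB fills most of several bars of day 22.

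The summed crystallin level at day 32 was 367, 170 and 499 TPM on LN523, 227, 1347 and 574 TPM on LN323 and 9.80, 46.1 and 207 TPM on LN521. LN523 and LN323 overlapped, and replicate 3 of LN521 lay above replicate 2 of LN523. By mean TPM the order on LN523 began with CRYBB3 at 125 ± 118 (SD, n = 3), CRYBB1 at 79.6 ± 32.3 and CRYAB at 35.0 ± 33.1, followed by CRYAA, CRYBA1 and CRYBA4 at 28.4 to 29.1, which did not differ beyond their spread. On LN323 the order began with CRYBB1 at 170 ± 186, CRYBA1 at 131 ± 141 and CRYBB3 at 127 ± 78.2, whose ranges overlapped. Without replicate 2 the order on LN323 began with CRYBB3 at a mean of 135 TPM over 2 libraries, then CRYBB1 at 65.4 and CRYBA1 at 52.0 TPM. On LN521 it began with CRYBB3 at 28.1 ± 40.9 and CRYAB at 23.5 ± 28.1. CRYGS and CRYBA2 were the lowest on every matrix.

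The matrices were then compared within day 32. Between LN523 and LN521, described only, 8 of 9 log2 folds were above 0, with a median of 2.23 against -0.05 over all genes, and 6 of 9 genes lay wholly higher on LN523, where 3.52% of 39377 genes did. CRYBB1, whose value in this contrast entered the choice of members, is part of these counts and of the median. They therefore cannot show whether crystallins differ more than other genes. The folds were 3.22 (SE 0.84) for CRYBB1, 2.79 (SE 1.00) for CRYBA4, 2.63 (SE 1.03) for CRYBB2, 2.55 (SE 0.76) for CRYBB3, 2.23 (SE 0.66) for CRYAA, 2.07 (SE 0.91) for CRYBA1 and 1.76 (SE 0.83) for CRYGS. CRYAB had 0.43 (SE 1.08) and CRYBA2 -0.09 (SE 1.42). CRYAA, CRYBA1, CRYBA4, CRYBB1, CRYBB2 and CRYGS did not overlap between these groups, and CRYBB3, CRYAB and CRYBA2 did.

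Between LN323 and LN521 all 9 folds were above 0, from 1.22 for CRYAB to 3.91 for CRYBA4, with a median of 3.61 against -0.05 over all genes. CRYGS had the lowest p, with a fold of 3.61 (SE 0.73, adjusted p = 0.572 by edgeR), and CRYAA followed with 3.18 (SE 0.67, adjusted p = 0.636). None of the 8 members tested passed edgeR's test, where 0% of 39377 genes did, and 7 of the 8 had an unadjusted p under 0.05, as had 1838 of all genes. The 0% over all genes depended on the libraries used. Without LN521 replicate 1 of day 32, edgeR called 369 of 38504 genes in this comparison. DESeq2 called 4 of the 8 members tested, where it called 799 of 38090 genes in all. With limma 0 members and 0 of 39377 genes were called. CRYAA, CRYBB1, CRYBB2 and CRYGS lay wholly higher on LN323, where 3.41% of genes did. That list and the median of 3.61 include CRYBB1, which is described only. Without LN323 replicate 2 the folds were 2.17 (SE 0.54) for CRYAA, 2.51 (SE 0.69) for CRYBA1, 2.67 (SE 0.79) for CRYBA4, 2.45 (SE 0.94) for CRYBB2 and 2.49 (SE 0.56) for CRYGS, again with 0 calls.

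LN523 and LN323 as isoforms share the gamma 3 chain, but by the sample labels the LN521 coating also held LN323. The part of any laminin chain in these values was not tested. All 9 folds of LN523 against LN323 were below 0 at day 32, from -0.25 for CRYBB3 to -3.01 for CRYBA2, all 9 genes overlapped between the groups, where 2.54% of genes lay wholly higher and 2.09% wholly lower on LN523, and edgeR called none of the 8 tested, with 2 at an unadjusted p under 0.05 and 0% of 39377 genes called. Over all genes 758 of 39377 had an unadjusted p under 0.05 in edgeR. Without LN323 replicate 2 the folds of CRYBA4, CRYBB2 and CRYBB3 were 0.23 (SE 0.70), 0.24 (SE 0.79) and 0.46 (SE 0.73), on the other side of 0, that of CRYAA was -0.04 (SE 0.48) and that of CRYBA2 -1.13 (SE 0.98). The direction between LN523 and LN323 rested on 1 library for these 3 genes.

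**Figure D4:**
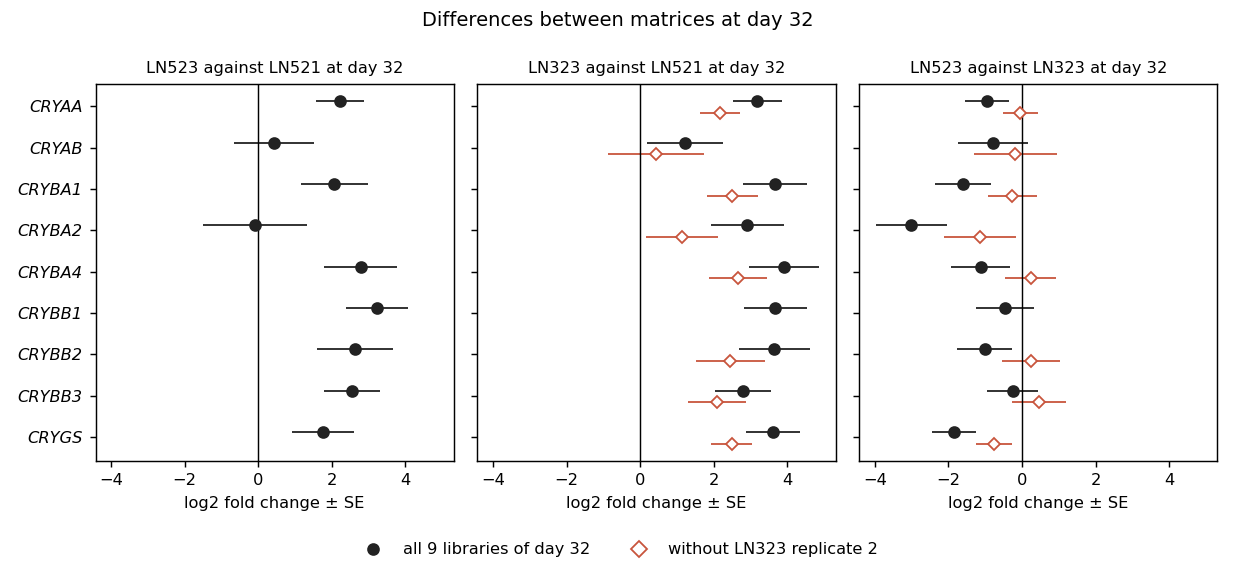
log2 fold change with its SE (x) of each crystallin (y) between matrices at day 32, with all 9 libraries (black circles) and without LN323 replicate 2 (open diamonds). Against LN521 both other matrices lie above 0 for most genes, and without that library the LN523 against LN323 values gather near 0. CRYBB1 is shown with all libraries.

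At the earlier days no member was called between matrices. At day 22 edgeR called 0 of 9 members for LN523 against LN323, LN523 against LN521 and LN323 against LN521, with 0, 3 and 3 at an unadjusted p under 0.05 and 0% of 38609 genes called in each comparison. Over all genes 491, 1616 and 1586 of 38609 had an unadjusted p under 0.05 in edgeR. DESeq2 called 0, 0 and 1 of the members, where it called 547, 486 and 626 of 38609 genes, and limma called 0 members. CRYBB2 was lower on LN523 than on LN521 at day 22, at 0, 0.688 and 0 against 1.41, 5.23 and 1.02 TPM, with a fold of -3.45 (SE 0.84, adjusted p = 0.640). At day 2 edgeR called 0 of 8 members in each comparison, with 1, 2 and 3 at an unadjusted p under 0.05, and DESeq2 and limma called 0. In those comparisons edgeR called 0%, 0.00259% and 0.256% of 38650 genes in either direction, and 635, 3426 and 4849 genes had an unadjusted p under 0.05. DESeq2 called 706, 639 and 897 of all genes there. CRYGS was at 0.142, 0.508 and 0.520 TPM on LN323 and at 1.82, 2.51 and 1.77 TPM on LN521 at day 2, without overlap, with a fold of -2.19 (SE 0.59, adjusted p = 0.135), which passed in the fit without the lane block (adjusted p = 0.0296 by edgeR).

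Whether the change from day 22 to day 32 differed between matrices was tested directly. Between LN323 and LN521 the difference in log2 change was above 0 for all 9 genes, from 1.10 (SE 1.19) for CRYBB3 to 4.96 (SE 1.37) for CRYBB2, and between LN523 and LN323 it ran from -4.85 (SE 2.56) for CRYBA2 to 1.12 (SE 2.11) for CRYBB2. Without LN323 replicate 2 of day 32 the ranges over the 8 members tested were 0.26 (SE 1.53) for CRYAB to 3.92 (SE 1.24) for CRYBB2, and -3.21 (SE 2.23) for CRYBA2 to 2.12 (SE 1.84) for CRYBB2, with all adjusted p at 1 by edgeR. With all libraries none of the 8 members tested passed edgeR's test in either case, with 3 and 1 at an unadjusted p under 0.05, and DESeq2 and limma called 0 members. No gene of 42336 passed edgeR's test, or 0%, and 1256 and 569 genes had an unadjusted p under 0.05. DESeq2 called 72 and 68 of all genes.

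Across the 18 libraries of days 22 and 32 the crystallins other than CRYAB varied together. Their 28 pairs had Pearson r of log2 CPM, counts scaled to a fixed library total, between 0.55 and 0.95 with a median of 0.85, and between 0.58 and 0.93 with a median of 0.80 without LN323 replicate 2 of day 32. The 8 pairs with CRYAB had r between 0.06 and 0.42. The libraries share their day, matrix and lane, so these values describe the series and carry no p. The highest pair was CRYBB1 with CRYBA4, the divergent neighbours of chromosome 22, at 0.948. CRYBA1 with CRYBB1, which lie on different chromosomes, had 0.946. The other neighbours on chromosome 22, CRYBB3 and CRYBB2, had 0.66.

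**Figure D5:**
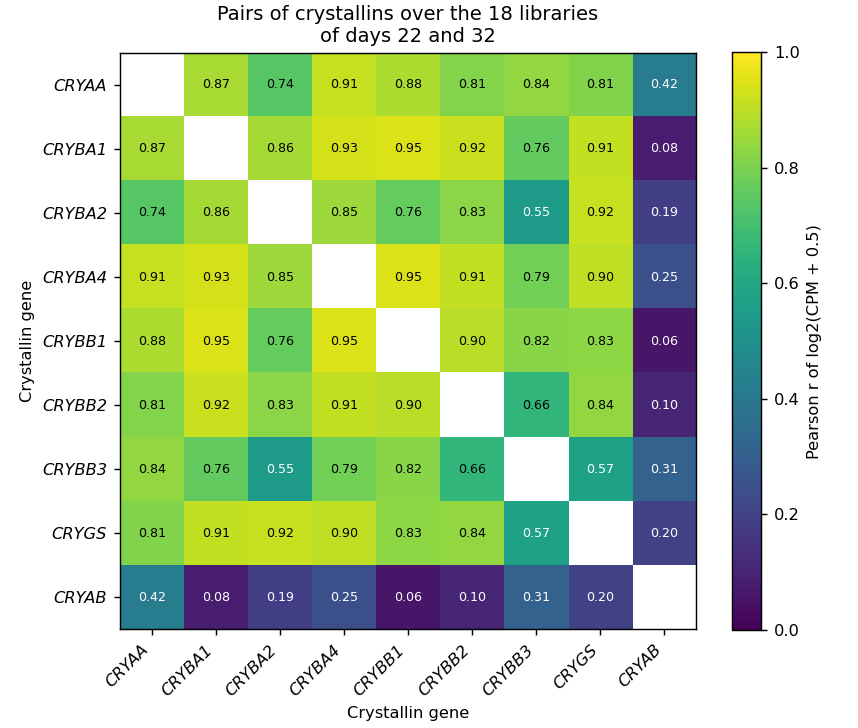
Pearson r between the crystallins over the 18 libraries of days 22 and 32, on log2 (CPM + 0.5), with one cell per pair. The 28 pairs without CRYAB are between 0.55 and 0.95, and the row of CRYAB stands apart at 0.06 to 0.42.

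The genes most like each member by the same measure, among 16021 genes with a mean of at least 1 CPM, included other crystallins at 22 of the 40 places of the 8 members ranked, against 13 of 40 by Spearman's rho and 15 of 40 without LN323 replicate 2 of day 32. All 5 nearest genes of CRYBA4 were members, in the order CRYBB1, CRYBA1, CRYAA, CRYBB2 and CRYGS, with r from 0.95 to 0.90. CRYBA1, CRYBB1 and CRYBB2 had 4 members each among their 5, with MGP, RNF150 and ALDH1L2 as the others, CRYAA had 3 with ADGRA2 and RNF150, and CRYGS had 2 with ZCCHC24, ARHGAP31 and GDF7. CRYBB3 had none and was nearest to BMP1, ZNF512, OS9, PLD3 and CPAMD8 at r of 0.92 to 0.87. CRYAB also had none, with ENSG00000254202, ALCAM, GRIP1, SNX2 and ACADL at r of 0.94 to 0.91. CRYBA2 was below 1 CPM and was not ranked. Without LN323 replicate 2 of day 32 the number of members among the 5 fell to 1 for CRYAA and to 2 for CRYBA4 and CRYBB1.

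Other genes of the lens were read from lists of related crystallins, lens fibre proteins, lens transcription factors and chaperones. Between days 2 and 22, 11.4% of all genes tested rose and 10.9% fell on LN523. The shares were 11.7% and 11.6% on LN323, and 11.3% and 10.3% on LN521. Of 13 related crystallins tested, 2 rose and 2 fell between days 2 and 22 on LN523, 3 rose and 3 fell on LN323, and 2 rose and 3 fell on LN521. Those that rose on all 3 were CRYL1, an enzyme of sugar metabolism, and CRYZL1, a quinone oxidoreductase-like protein, both enzymes or enzyme-like and outside the beta-gamma family, and the lens protein CRYGC rose on LN323 by 8.20 on the log2 scale (SE 2.39, adjusted p = 0.00931 by edgeR). CRYGD, a gamma-crystallin of the lens core, fell on all 3, by 1.44 on LN523, 1.73 on LN323 and 2.11 on LN521, and so did CRYBG1, by 3.73, 3.97 and 3.12 on the log2 scale. Of 15 lens transcription factors 10 rose and 1, SOX2, fell on each matrix between days 2 and 22. PAX6, SIX3 and MEIS1, which also act in the optic vesicle, rose by 7.38 to 9.30, and the large MAF factor MAF by 3.98 to 4.55. Of 12 chaperones 4 rose on each matrix, HSPA1A, HSPA1B, BAG3, which works with HSPB8, and HSPB8 itself, and HSPB7 fell on LN521.

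The fibre proteins of the lens were present in part. Of 12 tested, 4 rose on LN523 and 3 each on LN323 and LN521 between days 2 and 22, among them LIM2, a fibre membrane protein, which was at 8.35 to 118 TPM in the 18 libraries of days 22 and 32. Over all genes tested, 11.4%, 11.7% and 11.3% rose on LN523, LN323 and LN521 between days 2 and 22. EPHA2, which is widely expressed in epithelia, and TDRD7 rose on each matrix. MIP, the water channel of fibre cells, was at 5.37 TPM in the LN323 library of day 32 that was also highest for the crystallins and at most 1.38 TPM in the other 8 of its day, GJA3, a connexin of fibre cells, at 18.7 against 4.77 TPM, and CRYGC at 48.9 against 14.4 TPM. Other fibre genes were not raised in that library. LIM2 was at 40.3 TPM there against a median of 45.4 TPM in the other 8. EPHA2 was at 86.7 TPM against 130.2 to 273.5 TPM, and BFSP2 and GRIFIN were at 0. The filament gene BFSP2 was at 0 in 13 of the 18 libraries and GRIFIN at 0 in 12, DNASE2B stayed below 1 TPM, and FOXE3, a factor of the lens epithelium, reached 4.52 TPM. MIP, BFSP2, GRIFIN, DNASE2B, FOXE3 and, among the markers that follow, KRT14 were named after their values were seen.

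In the same LN323 library SIX6 was at 114 TPM against a median of 368 TPM in the other 8 libraries of day 32, and SOX2 at 78.3 against 223 TPM. The 5 markers of surface ectoderm and keratinocytes, TP63, KRT5, KRT14, KRT15 and KRT17, summed to 758 TPM there, the highest at day 32, and KRT15 was at 85.0 TPM against at most 42.9 TPM elsewhere. Their summed level at day 32 was 95.5 to 651 TPM on LN523, 187 to 758 TPM on LN323 and 308 to 703 TPM on LN521, with KRT14 at or below 1.46 TPM throughout. KRT17, an epithelial keratin, rose from day 22 to day 32 on all 3 matrices, by 2.86 (SE 0.36) on LN523, 3.52 (SE 0.38) on LN323 and 5.51 (SE 0.41) on LN521 on the log2 scale, with adjusted p of 5.96e-05, 9.94e-06 and 1.63e-09 by edgeR. The 8 lens markers summed to 21.1 to 141 TPM on LN523, 71.5 to 108 TPM on LN323 and 21.2 to 50.5 TPM on LN521 at day 32. The part of these markers in the crystallin values was not tested.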

How the data were processed

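Per the labels, total RNA was sequenced as 150-base read pairs from a stranded kit, and the submitters' processing notes name cutadapt, STAR 2.5.2b, featureCounts 1.5.1 and the build hg38. The authors deposited gene counts without normalization, whole numbers for 44852 genes, and TPM values made from the counts per gene length. An even number was found in 68.8% of counts above 0, and whether both reads of a pair were counted, or strand was used, is not given in the sources used here.

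From the counts, edgeR 4.0.16 (R 4.3.3) tested all genes whose summed count exceeded 1, with TMM scaling, the lane as a block and the quasi-likelihood test, with Benjamini-Hochberg adjustment and a threshold of 0.05. Changes with time used all 27 libraries, matrices the 9 libraries of a day, and interactions the 18 libraries of days 22 and 32. Total counts of 25620624 to 47340990 per library set the precision, and floors of 3 counts cover counting error only. Alternatives were DESeq2 1.42.0, limma 3.58.1 on log2 TPM, other filters and scalings, no block and leaving out each library. The members and lists were chosen with earlier results of these data known.

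On simulated data with 200 changed genes, the test found 94 of 100 genes with 8-fold and 22 of 100 with 2-fold changes for LN323 against LN521 at day 32 over 39377 genes, with 13.4% false calls, and 89 and 23 of 100 for LN323 day 32 against day 22 over 44852 genes, with 25.3% false calls, above the 5% aimed for. The newer quasi-likelihood fit was chosen after the data were seen, because edgeR's legacy fit made 18.1% and 31.3% false calls there. Same-numbered libraries varied together in every lane only between LN523 and LN323 at days 22 and 32, where the mean correlations of their deviations were 0.61 and 0.71. Named genes were the 9 members, the 5 genes most like each by Pearson r of log2 (CPM + 0.5), and those genes of the lens, chaperone and marker lists that passed a test or had a list's 3 highest mean TPM, with the exceptions the text names. Copies were sought with BLAST+ 2.17.0 at 95% identity or more over at least 50 bases. Figures were drawn with matplotlib 3.10.9. Values of some listed genes are not reported here.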

Additional observations from a re-analysis of the deposited data

Results flagged for a closer look

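In 4 cases the groups were apart in one direction under one contrast and apart in the opposite direction under another, and none of these differences was tested. CRYBB2 was lower on LN523 than on LN521 at day 22, with a log2 fold change of -3.45, and higher at day 32, with 2.63, a difference of -6.07. CRYGS was higher at day 22 than at day 2 in every LN323 library and lower in every LN521 library, with 1.27 and -1.22, a difference of 2.49, and neither value passed edgeR's test. CRYGS was lower on LN523 than on LN521 at day 2, with -1.27, and higher at day 32, with 1.76, a difference of -3.03. CRYGS was lower on LN323 than on LN521 at day 2, with -2.19, and higher at day 32, with 3.61, a difference of -5.80. The day 32 values of both genes against LN521 on LN523 are descriptions, and the value on LN323 rests in part on replicate 2, without which it was 2.49.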

How the results depend on the processing

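Of the counts of crystallins called, those on LN323 between days 22 and 32 moved most. The 7 calls became 0 by limma on log2(TPM + 1) and log2(TPM + 0.1), and 0 to 7 when 1 library was left out, with 0 without LN323 replicate 2 of day 32 or of day 22 and 1 without replicate 3 of day 22. Over all genes the 2 limma fits called 3 and 1. The fits without replicate 2 of day 32, replicate 2 of day 22 and replicate 3 of day 22 called 1, 1 and 3. On LN523 the 2 calls between days 22 and 32 became 1 by DESeq2, 1 with no replicate block, 0 by both limma fits, 0 with only the groups compared, and 1 to 4 with a library left out. Over all genes on LN523 DESeq2 called 185, the fit with no block 149, limma 28 and 3, and the groups alone 11. Between days 2 and 22 the 3 calls on LN523 were 1 to 3 with a library left out, the 5 on LN323 were 3 by limma on log2(TPM + 1) and 3 to 4 with a library left out, and the 2 on LN521 were 4 by DESeq2, 4 by the legacy quasi-likelihood fit, 4 with only the groups compared, 1 by limma on log2(TPM + 1) and 1 to 2 with a library left out. Over all genes on LN521, DESeq2 called 10303 of 28330 and the legacy fit 8493 of 44852. The groups alone gave 9566 of 39176, and limma on log2(TPM + 1) gave 10449 of 44852. Between LN323 and LN521 the 0 calls became 1 at day 2 with no replicate block and 0 to 1 with a library left out, 1 at day 22 by DESeq2 and 1 by the legacy fit, and 4 at day 32 by DESeq2 and 4 by the legacy fit. Over all genes, the fit with no block called 1283 of 38650 at day 2. DESeq2 called 626 of 38609 at day 22 and 799 of 38090 at day 32, and the legacy fit called 238 and 46. The cause of these moves was not tested. The fit without the replicate block changed no other count by over 1.5 times: it gave 3, 5 and 3 calls between days 2 and 22 and 7 on LN323 between days 22 and 32, and LN523 against LN323, where the lanes pair the libraries, stayed at 0. No fold of a member that passed reversed. For single genes and their nearest neighbours, 202 values kept their side, 82 lost their call in the same direction and 7 counts of neighbours moved. The legacy fit and the omission of LN323 replicate 2 from the likeness measure were chosen after seeing the data. Genes with few counts, CRYBA2 at days 2 and 22, CRYAA and CRYBB2 at day 2 and CRYBB2 on LN523 at day 22, are limited by depth.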
